A study of Gallus gallus with 66 samples.

Results

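The genes described here are 5 chicken fibroblast growth factor (FGF) ligands (FGF1, FGF2, FGF7, FGF10 and FGF18) and the 4 FGF receptor kinases (FGFR1, FGFR2, FGFR3 and FGFR4), followed across every group of a preadipocyte culture experiment. They were taken by name: all probe sets that the platform annotation assigns to 1 of these 9 genes and to no other, which gave 19 of the 38535 probe sets on the array, where 13009 genes have a probe set of their own. All 9 genes were measured, and 15 of their 19 probe sets passed the filter on dim signals (above the array median of 4.17 on all 3 arrays of at least 1 group). Of the 4 that did not pass, 2 belong to FGF1, 1 to FGFR2 and 1 to FGFR3. Levels are log2 signals, on which a difference of 1 is a doubling, and values below 1.61 were set to 1.61, the floor. Each gene is given by its brightest tested probe set, and signals of different genes are not compared with each other because every probe set has its own brightness.

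FGF ligands are secreted, and most of them are held near the cell surface by heparan sulfate. They bind receptor tyrosine kinases, which pass the signal through adaptor proteins and RAS to the kinase ERK, and ERK then switches on genes that damp the same pathway. In mammalian fat tissue, FGF1, FGF2 and FGF10 are known to act on preadipocyte growth or differentiation, and FGF7 is classed as a stromal signal to epithelial cells.

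Cells came from the abdominal fat of male chickens aged 10 days from a lean line and a fat line, pooled from 15 birds in each line. The collagenase-freed cells, after removal of floating adipocytes and lysis of red cells, were sampled without culture (uncultured), after 1 passage at 50% confluence (−12 h) and at 95% confluence (0 h), and then after 12, 24, 72 and 120 h in normal medium (control) or in medium with 160 µg/ml oleate, a fatty acid. This makes 22 groups of 3 arrays, 66 in all. Within a group the 3 arrays carry the label biological replicate, with nothing on whether pools or dishes were separate, so p-values measure only the spread between these arrays.

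The labels write array names in either of 2 styles, and this touches every comparison of oleate with control. All 24 control arrays and the 3 fat-line arrays at −12 h have names joined by a low bar, the other arrays have dotted names, and 1 oleate array has no name. Probe sets for the poly-A spike-in controls, RNAs added in the laboratory, were lower in oleate than in control on 36 of 36, by a median of 0.60. Their median difference from uncultured cells to 0 h was −0.62, and all of those arrays have dotted names. The source of these shifts and their part in the results were not tested. Since all control arrays have low-bar names and all named oleate arrays dotted ones, oleate and array style cannot be told apart directly. An estimate of the style difference was taken from the fat-line step from −12 h (low bar) to 0 h (dotted) minus the same step in the lean line (dotted at both), which also holds any true difference between the lines in that step. It was called for none of the 9 genes by limma, against 2.71% of probe sets, with an unadjusted p under 0.05 for FGF10 and FGFR1. Subtracting the estimate adds its error to that of the oleate difference. A call can thus be lost without a change in the difference itself.

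For each of these genes but FGFR4, the widest difference between group means lay between an uncultured and a cultured group. At 0 h, 8 of the 9 genes differed from the uncultured cells at an adjusted p under 0.05 (limma, Benjamini-Hochberg over all tested probe sets), against 68.9% of the 22060 tested probe sets. FGF1 is counted here although its tested probe set passed the filter through its uncultured groups only. Of the 8, 3 rose (FGF2, FGF10 and FGFR2) and 5 fell (FGF1, FGF7, FGF18, FGFR1 and FGFR3). The background was 40.8% higher and 28.1% lower, and the median difference was −0.91 over the 9 genes and 0.18 over all tested probe sets. The same 8 genes passed the test in the same direction in each line separately, against 57.7% of probe sets in the lean line and 59.5% in the fat line. For FGFR3 in the fat line the call was lost without any 1 of 3 arrays, with no floor (adjusted p = 0.107), with a floor at the 10th percentile (0.0672), with array weights (0.0613) and with the mean of its probe sets (0.169). The difference between the lines in this step was called for none of the 9 genes (3.63% of all probe sets), with an unadjusted p under 0.05 for FGF2, FGF10, FGF18 and FGFR1.

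FGF2, a broad mitogen of mesenchymal cells, moved up between uncultured and cultured cells without overlap. The 3 uncultured lean arrays read 6.91, 7.07 and 6.42, and the 3 uncultured fat arrays 7.35, 7.13 and 7.20. All 60 cultured arrays lay between 10.08 and 10.82, with a median of 10.48. The rise at 0 h was 3.42 ± 0.09 (standard error, 6 arrays against 6), a 10.7-fold difference with an adjusted p of 1.16e-35. Once the cells were in culture, FGF2 stayed in this narrow band, and the median SD within a group was 0.11. Among the 20 cultured groups no 2 neighbours in the order of means were free of overlap. Groups further apart could differ: fat oleate 12 h ran from 10.08 to 10.34 and fat oleate 72 h from 10.58 to 10.67.

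FGF18, known best for its part in cartilage and bone growth, went the other way and showed the widest range of the 9 genes in log2 terms, 7.17 from the highest group mean to the lowest. Uncultured lean arrays read 8.41, 8.68 and 9.32 and uncultured fat arrays 8.20, 9.0 and 8.46. The 60 cultured arrays ran from the floor of 1.61 to 5.81 with a median of 3.06, and 11 of them were at the floor. No cultured array reached the lowest uncultured one. At 0 h FGF18 was lower than in uncultured cells (fitted log2 difference −5.55 ± 0.51, adjusted p = 9.13e-14). The 0 h arrays were dim, 1.92, 2.65 and 2.01 in the lean line against a floor of 1.61, and with no detection calls used here the fitted size cannot be read as an exact fold.

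FGF1, which binds all 4 receptors and is induced by feeding in mouse fat, also dropped to dim signals on its tested probe set. It read 6.16, 6.34 and 6.41 in uncultured lean cells and 4.99, 6.28 and 5.61 in uncultured fat-line cells. In culture it ran from 1.61 to 3.87, with a median of 2.62 and 14 of 60 arrays at the floor, so that all cultured arrays were below all uncultured ones. At 0 h it read 2.08, 2.07 and 2.12 (lean) and 2.15, 3.64 and 1.61 (fat). This FGF1 probe set was above the array median on the 6 uncultured arrays only and passed the filter through them. It thus had to be lower in culture, and the fitted difference of −3.69 ± 0.44 describes the fall and is not an exact fold. An untested FGF1 probe set, brighter on average (4.13 against 2.88 over all arrays), did not show this fall. It ran from 3.15 to 4.30 (median 4.16) on the uncultured arrays and from 1.72 to 5.13 (median 4.19) on the cultured arrays. The remaining FGF1 probe set was at the floor on 65 of 66 arrays. In the order of means each cultured group of FGF1 overlapped its neighbour. Some groups further apart did not overlap, such as lean 0 h (2.07 to 2.12) and lean oleate 72 h (3.15 to 3.56).

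FGF7, a paracrine ligand that acts through the epithelial form of FGFR2, was bright throughout and fell in steps. Uncultured lean arrays read 9.98, 10.39 and 9.71 and uncultured fat arrays 10.05, 9.84 and 10.10. At −12 h the 6 arrays ran from 8.73 to 9.45 (median 9.17), and at 0 h from 7.54 to 8.80 (median 8.35). Every uncultured array was above every −12 h array, and the −12 h and 0 h arrays overlapped only between 8.73 and 8.80. From uncultured to 0 h the fall was by 1.76 ± 0.27 (adjusted p = 1.03e-07). A second FGF7 probe set gave a fall by 2.00 ± 0.24 (adjusted p = 3.70e-10).

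FGF10, the ligand that mouse embryos need to form white fat tissue, rose. It read 5.60, 5.90 and 5.28 in uncultured lean cells and 6.04, 4.80 and 5.27 in uncultured fat-line cells. At 0 h the lean arrays read 7.37, 7.42 and 7.46 and the fat arrays 8.58, 8.09 and 8.13. The rise was 2.36 ± 0.22, 5.13-fold, with an adjusted p of 2.36e-13. The 3 fat-line arrays at 0 h were higher than all 3 arrays of the next group in the order of means. Later arrays came down as far as 5.99, just under the highest uncultured one.

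Among the receptors, FGFR2 rose and FGFR1 and FGFR3 fell. FGFR1, the main FGF receptor of mesenchymal cells, read 9.33, 9.50 and 9.63 (lean) and 9.18, 9.35 and 9.29 (fat) without culture, and between 7.82 and 9.0 on the 60 cultured arrays. The groups did not overlap, and the fall at 0 h was by 0.91 ± 0.09, 1.89-fold (adjusted p = 7.36e-13). FGFR2, whose splice forms bind different sets of ligands, read 6.70, 6.46 and 6.83 (lean) and 6.20, 6.76 and 6.68 (fat) without culture and 7.13 to 9.01 in culture. Here too the groups did not overlap, and the rise at 0 h was 1.77 ± 0.16, 3.40-fold (adjusted p = 5.09e-14). All 4 tested FGFR2 probe sets rose, by 1.09 to 1.84, but the array cannot tell splice forms apart from these values.

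FGFR3, a receptor that restrains growth-plate cartilage, read 6.20, 6.84 and 6.45 (lean) and 6.36, 5.95 and 6.87 (fat) without culture. The cultured arrays all lay lower, from the floor to 5.79. The fall at 0 h was by 1.60 ± 0.37 (adjusted p = 0.000165), but the 3 tested FGFR3 probe sets disagreed: 1 other fell by 1.24 ± 0.46 (adjusted p = 0.0141) and the third gave −0.24 ± 0.49 (adjusted p = 0.686). FGFR4, the liver receptor for FGF19, read 1.61, 3.98 and 4.02 (lean) and 3.70, 1.82 and 3.53 (fat) without culture and from 1.61 to 5.15 in culture. Its 6 uncultured arrays lay inside that range, its difference at 0 h was −0.02 ± 0.64 (adjusted p = 0.982), and none of its 22 groups was separated from the next in the order of means.

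**Figure D1:**
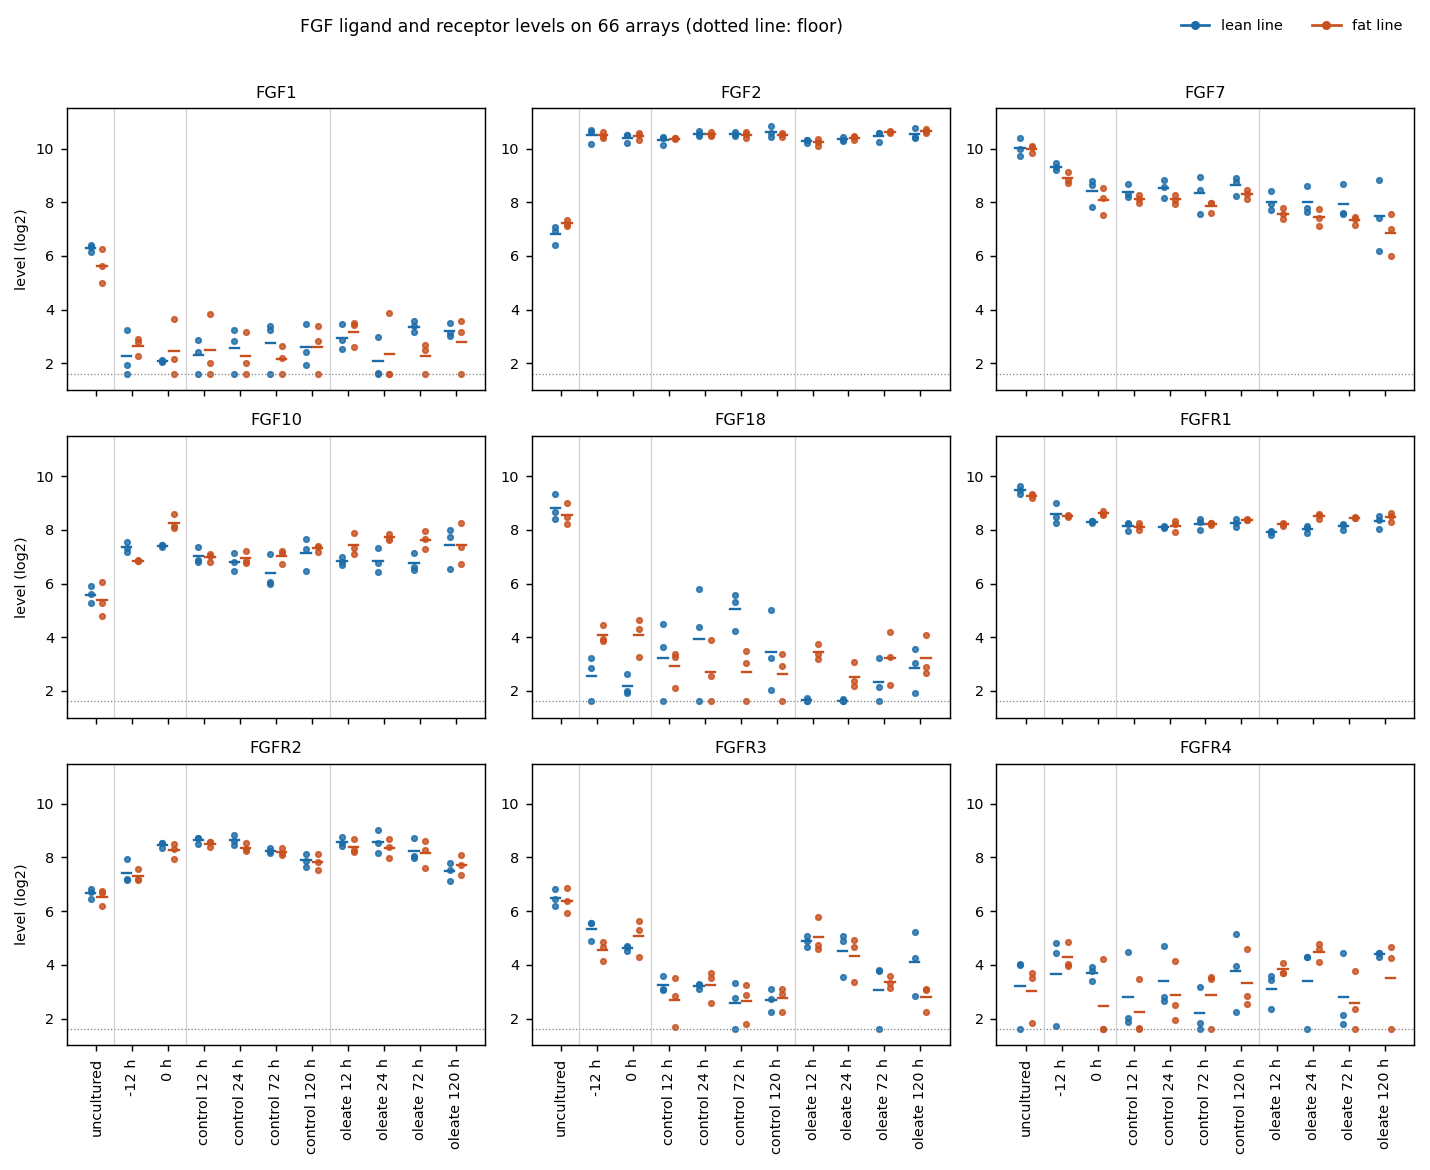
Log2 level of each of the 9 genes (vertical axis) in the 22 groups (horizontal axis), with a point for each of the 3 arrays, a short bar for the group mean, blue for the lean line, orange for the fat line and a dotted line at the floor of 1.61. FGF2 and FGFR2 lie higher on every cultured array than on any uncultured array, and FGF1, FGF7, FGF18, FGFR1 and FGFR3 lie lower on every one.

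Counted over all 66 arrays, 7 of the 9 genes had no overlap between the 6 uncultured and the 60 cultured arrays, against 24.5% of all tested probe sets. FGF2 and FGFR2 were higher on every cultured array (12.8% of probe sets) and FGF1, FGF7, FGF18, FGFR1 and FGFR3 were lower (11.7%). FGF10 and FGFR4 overlapped. FGF1 is counted here too, although its tested probe set passed the filter through uncultured groups only and so had to lie lower in culture. A brighter, untested FGF1 probe set overlapped between uncultured and cultured arrays.

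**Figure D2:**
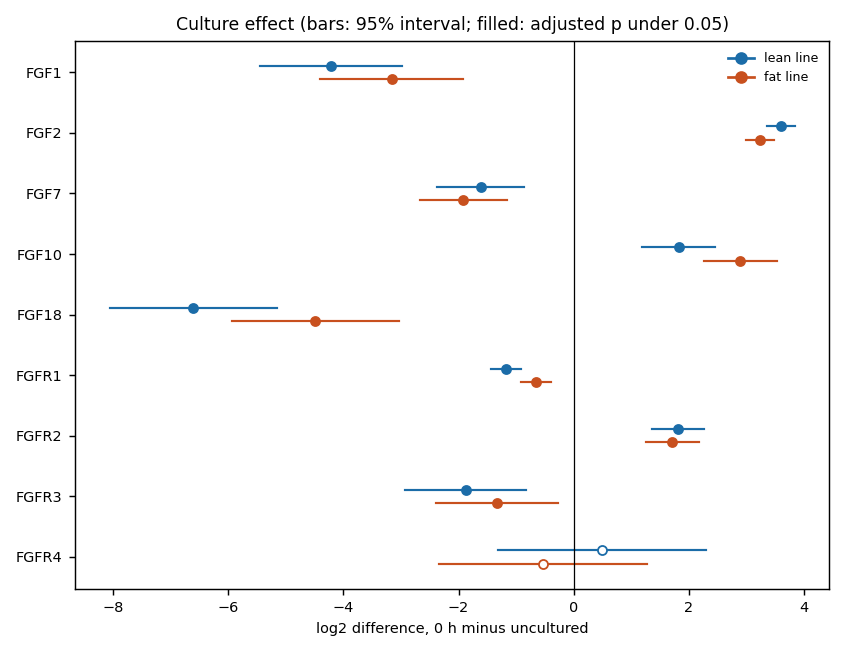
Difference in log2 level between 0 h and uncultured cells (horizontal axis) for each gene (vertical axis), in the lean line (blue) and the fat line (orange), with 95% intervals as bars and filled points where the adjusted p was under 0.05. In both lines FGF2, FGF10 and FGFR2 lie to the right of 0 and FGF1, FGF7, FGF18, FGFR1 and FGFR3 to the left, while the intervals of FGFR4 span 0.

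Markers of other cells moved with this step. The mean level of 14 tested macrophage and myeloid markers ran from 9.96 to 10.68 on the 6 uncultured arrays and from 7.39 to 8.69 on the 6 arrays at 0 h, and all 14 markers were above the array median on every one of these arrays. For the 7 tested lymphocyte markers the range went from 5.53–6.58 to 2.80–3.48, for the 3 erythroid markers from 7.39–8.95 to 2.24–3.76, and for the 9 endothelial markers from 6.58–7.64 to 5.16–5.77. The 7 adipocyte markers went from 7.98–8.56 to 5.76–6.78, the 3 mesothelial and epithelial markers from 4.80–6.54 to 3.82–4.34, and the 13 preadipocyte and stromal markers from 10.22–10.64 to 8.72–9.24. The mean of the 5 smooth muscle and pericyte markers went from 6.52–7.43 to 8.16–8.60 and that of the 2 skeletal muscle markers from 7.14–7.71 to 8.70–9.27. Within these 2 lists the genes moved in opposite directions. ACTA2, TAGLN and MYL9 rose by 4.48, 3.86 and 2.69, while MYH11 and RGS5 changed by −1.11 and −2.85. ACTA1 rose by 5.49, while TNNT3 changed by −2.38. The endothelial list was mixed too: 7 of its 9 tested markers were called lower at 0 h, while ERG was called higher, by 3.46. No marker was at the floor on all arrays of either state. Markers were tested only if above the array median of 4.17 on all 3 arrays of at least 1 group. Any that passed through uncultured groups only had to be lower in culture, as for the FGF1 probe set. HBA1 and CD4, for example, averaged 1.88 and 1.75 over the cultured arrays. The markers that passed in this way were not counted, so the falls of these lists are a description. Of the 13 preadipocyte and stromal markers, 11 were called lower at 0 h and none higher, with EBF1 at −2.82 and EBF2 at −2.31. COL1A1, COL1A2, COL3A1, LUM and DCN, all but COL1A1 among the 11, stayed bright. They averaged above 12 in uncultured cells and over all cultured arrays together. By the same means CD34, a surface marker of fat stromal cells, went from 10.90 to 3.51. The part of these other cells in the changes of the FGF genes was not tested, and in bulk RNA fewer cells of a type and less RNA per cell cannot be told apart.

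As the culture closed from 50% to 95% confluence, 3 of the 9 genes changed, against 15.2% of all probe sets. FGFR2 read 7.18, 7.17 and 7.95 (lean) and 7.17, 7.58 and 7.21 (fat) at −12 h, and 8.54, 8.34 and 8.55 (lean) and 7.95, 8.33 and 8.52 (fat) at 0 h. All but 1 of the 0 h arrays were above all of the −12 h arrays, and the exceptions, a lean array at −12 h and a fat array at 0 h, both read 7.95. The rise was 0.99 ± 0.16 (adjusted p = 1.52e-05), and in the lean line alone, where array styles match, it was 1.04 ± 0.23 (adjusted p = 0.00697; 1.90% of probe sets called). Without either of the 2 lower lean arrays at −12 h the lean rise was 0.91 or 0.92 and missed the threshold. FGF7 fell by 0.86 ± 0.27 (adjusted p = 0.0207) and FGF10 rose by 0.73 ± 0.22 (adjusted p = 0.0187). In the lean line alone, FGF7 gave −0.91 ± 0.38 (adjusted p = 0.229) and FGF10 gave 0.05 ± 0.32 (adjusted p = 0.974), so neither was called within 1 array style. The pooled FGF7 call was lost without any of 3 single arrays (fat −12 h replicate 3, lean 0 h replicate 1 or fat 0 h replicate 3) and the FGF10 call without fat 0 h replicate 1.

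The question of the culture series was what oleate does. Over both lines and 4 hours, 4 of the 9 genes differed between oleate and control, against 35.0% of all tested probe sets, so the count is not a result about these genes. FGF7 and FGF18 were lower (background 17.6%) and FGF10 and FGFR3 higher (17.4%) in oleate. The pooled FGF18 difference was −0.72 ± 0.26 (adjusted p = 0.0242), an average of unlike values in the lines, and its call was lost with no floor (0.119), with a floor at the 10th percentile (0.0841), with the series block, in which arrays of a line with the same number form a random block, control arrays apart from all others (0.0601), and without lean control 24 h replicate 1 (0.0513). By line, 3 genes were called in the lean line (FGF7, FGF18 and FGFR3, against 20.3% of probe sets) and 4 in the fat line (FGF7, FGF10, FGFR1 and FGFR3, against 25.5%). The FGFR1 call was lost with the series block (adjusted p = 0.0750) and without fat control 24 h replicate 2 (0.0542). With the style estimate subtracted, the fat-line FGFR1 difference was −0.18 ± 0.19 (adjusted p = 0.877), with the sign turned. The lean-line FGFR3 call was lost with the mean of its probe sets (difference 0.44, adjusted p = 0.181). The fat-line FGF10 call was lost without fat oleate 120 h replicate 3 (adjusted p = 0.0523). Single hours gave few calls. In the lean line FGF18 was called at 72 h (2.00% of probe sets called there), a call lost without any 1 of 4 of the 6 arrays (adjusted p 0.111 to 0.192) and with no floor or a lower one (0.0821 and 0.0635), and no member at 12, 24 or 120 h (3.38%, 2.20% and 4.96%). In the fat line FGFR3 was called at 12 h (6.39%; adjusted p = 0.0505 without control replicate 1), FGF7 at 120 h, and no member at 24 or 72 h (3.25% and 4.67%). At the hours without a call, limma's unadjusted p was under 0.05 for FGF18 and FGFR3 (lean 12 and 24 h), FGF7 and FGFR3 (lean 120 h) and FGF10 and FGFR1 (fat 24 h). With the style estimate subtracted, limma called none of the 9 pooled (unadjusted p under 0.05 for FGF10) and 155 of all probe sets. It called none of the 9 in either line, with an unadjusted p under 0.05 for FGF10 and FGFR1 in the lean line. Markers moved with the medium as well: 11 of the 14 tested macrophage and myeloid markers were higher in oleate and none lower, with a mean level from 4.48 to 8.12 (median 6.66) in control and from 5.23 to 8.50 (median 7.59) in oleate. Of the 7 adipocyte markers, FABP4 and CD36 were higher and PPARG lower. Of the 13 preadipocyte and stromal markers 3 were higher and 9 lower, with a mean level from 8.69 to 9.25 in control and from 8.33 to 9.11 in oleate, and of the 5 smooth muscle and pericyte markers 2 were lower. The part of these cells in the oleate differences was not tested. FGF1, FGF2, FGFR1, FGFR2 and FGFR4 gave pooled oleate differences of 0.31, −0.05, 0.05, −0.11 and 0.58, with adjusted p from 0.155 to 0.393.

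FGF7 was lower in oleate in both lines. In the lean line the 12 control arrays ran from 7.58 to 8.96 (median 8.50) and the 12 oleate arrays from 6.20 to 8.83 (median 7.76). In the fat line the control arrays ran from 7.60 to 8.48 (median 8.09) and the oleate arrays from 6.00 to 7.79 (median 7.41). The ranges overlapped in both lines, and the top oleate array of the lean line was the one numbered 2 at each hour (8.42, 8.60, 8.68 and 8.83). The mean was lower in oleate in all 8 pairs of line and hour, as it was for 9.74% of probe sets (10.7% were higher in all 8). In 4 of the 8, all of them in the fat line, every oleate array was below every control array. In the lean line the arrays overlapped at each hour. The share of all probe sets with such a separation was not counted. The pooled difference was −0.70 ± 0.13 (adjusted p = 4.05e-05), with −0.61 ± 0.19 in the lean line and −0.79 ± 0.19 in the fat line. The second probe set gave −0.87 ± 0.12 (adjusted p = 7.53e-08). The style estimate for FGF7 was 0.09 ± 0.53, and with it subtracted the difference was −0.79 ± 0.55 and no longer called (adjusted p = 0.670). Without the lean oleate 120 h array numbered 3 the lean-line value was −0.45 and missed the threshold (adjusted p = 0.0583).

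At 120 h the FGF7 difference was the widest. The fat-line arrays read 8.12, 8.31 and 8.48 in control and 6.99, 7.56 and 6.00 in oleate, with no overlap, and the difference was −1.45 ± 0.38 (adjusted p = 0.0176; 3.28% of probe sets called). The lean-line arrays read 8.77, 8.24 and 8.92 in control and 7.40, 8.83 and 6.20 in oleate, which overlapped, and the difference of −1.17 ± 0.38 missed the threshold (adjusted p = 0.0602). Single arrays moved the lean value from −0.53 to −1.84, and it was called without control replicate 2 or oleate replicate 2, with array weights, with the series block and with the mean of probe sets. The fat-line call was lost without any of 3 arrays (control replicates 2 and 3, oleate replicate 3). The change of the oleate difference from 12 h to 120 h was −0.85 ± 0.38 and did not pass the test (adjusted p = 0.547; 0.304% of probe sets called). Against the shared 0 h start, where the styles of named arrays match, FGF7 was at −0.45 ± 0.27 after 12 h of oleate (adjusted p = 0.638). It was lower by 120 h, at −1.08 ± 0.27 (adjusted p = 0.00311, with 17.9% of probe sets called), where 1 fat oleate array has no name. In control, FGF7 moved by 0.21 ± 0.27 from 12 h to 120 h (adjusted p = 0.681).

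FGFR3 showed the largest rise with oleate and also a large style estimate. Control arrays ran from 1.61 to 3.69 (median 3.07) and oleate arrays from 1.61 to 5.79 (median 4.04). At 12 h the arrays did not overlap: control read 3.05, 3.60 and 3.09 (lean) and 1.68, 2.84 and 3.50 (fat), and oleate 4.68, 4.90 and 5.07 (lean) and 5.79, 4.75 and 4.61 (fat). The 6 arrays at 0 h, which share the dotted style with oleate, ran from 4.28 to 5.63. Oleate at 12 h differed from 0 h by 0.12 ± 0.37 (95% interval −0.62 to 0.87, adjusted p = 0.966), and control at 12 h was lower than 0 h by 1.88 (adjusted p = 0.000247, styles not matched). The pooled oleate difference was 1.13 ± 0.19 (adjusted p = 2.99e-06), the style estimate 1.24 ± 0.74 (adjusted p = 0.523), and the difference with it subtracted −0.11 ± 0.77, with the sign turned. The other tested FGFR3 probe sets gave 0.52 ± 0.23 (adjusted p = 0.0721) and 0.28 ± 0.25 (adjusted p = 0.408).

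FGF10 also had a style estimate larger than its oleate difference. Its 24 control arrays ran from 5.99 to 7.65 (median 7.07) and its 24 oleate arrays from 6.45 to 8.26 (median 7.29), so most of the ranges were shared. The pooled difference was 0.31 ± 0.11 (adjusted p = 0.0241), with 0.13 ± 0.16 in the lean line and 0.49 ± 0.16 in the fat line (adjusted p = 0.616 and 0.0162). With the series block neither call held (adjusted p = 0.0720 pooled and 0.0590 in the fat line). The style estimate was 1.37 ± 0.45 (adjusted p = 0.0925), and the oleate difference became −1.05 ± 0.46 (adjusted p = 0.361) with it subtracted. Against 0 h, FGF10 stood at −0.72 ± 0.22 after 12 h of oleate (adjusted p = 0.162) and at −0.84 ± 0.22 after 12 h of control (adjusted p = 0.00592, styles not matched).

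**Figure D3:**
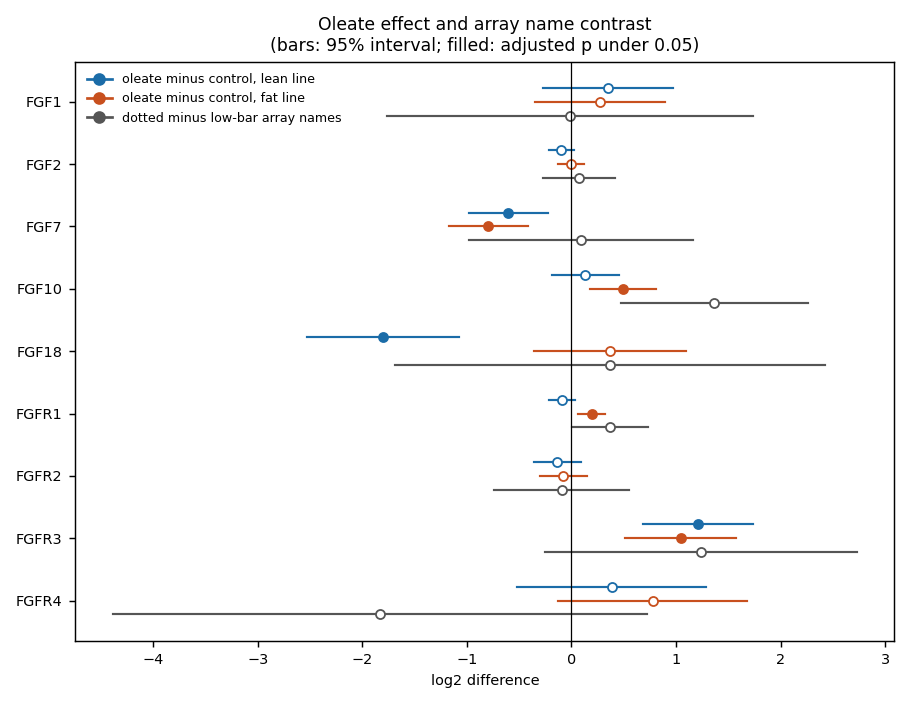
Difference in log2 level (horizontal axis) between oleate and control, averaged over 12, 24, 72 and 120 h, in the lean line (blue) and the fat line (orange), beside the estimate of the array style difference (grey), for each gene (vertical axis). Bars are 95% intervals and filled points had an adjusted p under 0.05. For FGFR3 and FGF10 the grey point lies on the same side as the oleate points and at least as far from 0. For FGFR1 it lies to the right of the fat point. For FGF7 it lies near 0, and for FGF18 the lean and fat points lie on opposite sides.

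FGF18 was the only member whose oleate difference was called different between the lines. Lean control arrays read 4.49, 1.61 and 3.62 at 12 h, 5.81, 1.61 and 4.37 at 24 h, 5.57, 4.24 and 5.31 at 72 h, and 5.03, 3.24 and 2.05 at 120 h. Lean oleate arrays read 1.72, 1.61 and 1.61 at 12 h, 1.61, 1.69 and 1.61 at 24 h, 2.15, 3.22 and 1.61 at 72 h, and 1.91, 3.03 and 3.56 at 120 h. In the lean line, then, control arrays were spread widely with 2 of 12 at the floor, and 5 of 12 oleate arrays were at the floor. Fat control arrays ran from 1.61 to 3.90 (median 2.98) and fat oleate arrays from 2.17 to 4.21 (median 3.14). In fat control 1 array was at the floor at each of 24, 72 and 120 h, and in fat oleate none was. The oleate difference was −1.80 ± 0.36 in the lean line (adjusted p = 0.000175) and 0.37 ± 0.36 in the fat line (adjusted p = 0.496). With the style estimate subtracted, and its wider standard errors, the lean-line value was −2.17 ± 1.08 and no longer called (adjusted p = 0.378). The fat-line value was then −0.004 ± 1.08. The difference between the lines was 2.17 ± 0.51 (adjusted p = 0.0137, with 1.85% of probe sets called). Among named arrays, both lines set a dotted against a low-bar style. The difference between the lines was 1.93 to 2.46 and stayed called whichever of the 48 arrays was left out. With the series block it was no longer called (adjusted p = 0.0732). All of these signals are dim: the highest cultured array, 5.81, is below the lowest uncultured one by more than 2.

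The lines also differed in FGF18 within a medium. In control the fat line was lower, at −1.17 ± 0.36 (adjusted p = 0.0203; 16.1% of probe sets called), a call that was lost without lean control 24 h replicate 1 or 120 h replicate 1, with array weights and with the series block. In oleate the fat line gave 0.99 ± 0.36 (adjusted p = 0.0536), and at 0 h, with lean arrays of 1.92, 2.65 and 2.01 and fat arrays of 4.31, 4.64 and 3.26, there was no overlap and the difference was 1.88 ± 0.72 (adjusted p = 0.105). No member was called between the lines at −12 h (1.12% of probe sets) or at 0 h (8.08%), with an unadjusted p under 0.05 for FGF18 at −12 h and for FGF10, FGF18 and FGFR1 at 0 h.

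In all, 3 members differed between the lines in oleate culture, where all named arrays share the dotted style, against 15.3% of probe sets. FGF10 ran from 6.45 to 8.0 (median 6.78) in the lean line and from 6.75 to 8.26 (median 7.65) in the fat line, a rise of 0.60 ± 0.16 (adjusted p = 0.00604). FGFR1 ran from 7.82 to 8.53 (median 8.05) in the lean line and from 8.14 to 8.63 (median 8.45) in the fat line, higher by 0.32 ± 0.06 (adjusted p = 0.000261). FGF7 was lower in the fat line by a log2 difference of −0.57 ± 0.19 (adjusted p = 0.0319), a call that was lost without any 1 of 8 of the 24 arrays, with no filter and with the series block (adjusted p = 0.0774). In control the same 3 genes gave 0.24, 0.03 and −0.38, none of them called. The difference between the media was itself not called: 0.36 for FGF10 (adjusted p = 0.448), 0.29 for FGFR1 (adjusted p = 0.0832) and −0.19 for FGF7 (adjusted p = 0.794). Macrophage and myeloid markers moved with line and medium: their mean level had a median of 6.38 in lean control, 7.31 in fat control, 7.16 in lean oleate and 7.71 in fat oleate, with ranges that overlapped. Their part in these differences was not tested.

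In uncultured cells FGF2 was higher in the fat line by 0.43 ± 0.12 (adjusted p = 0.0393; 2.85% of probe sets called). The lean array at 6.42 stood below the other 5, and without it the difference was 0.24 (adjusted p = 0.350). Without fat replicate 1 or 3 it was 0.37 or 0.44 and missed the threshold too.

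**Figure D4:**
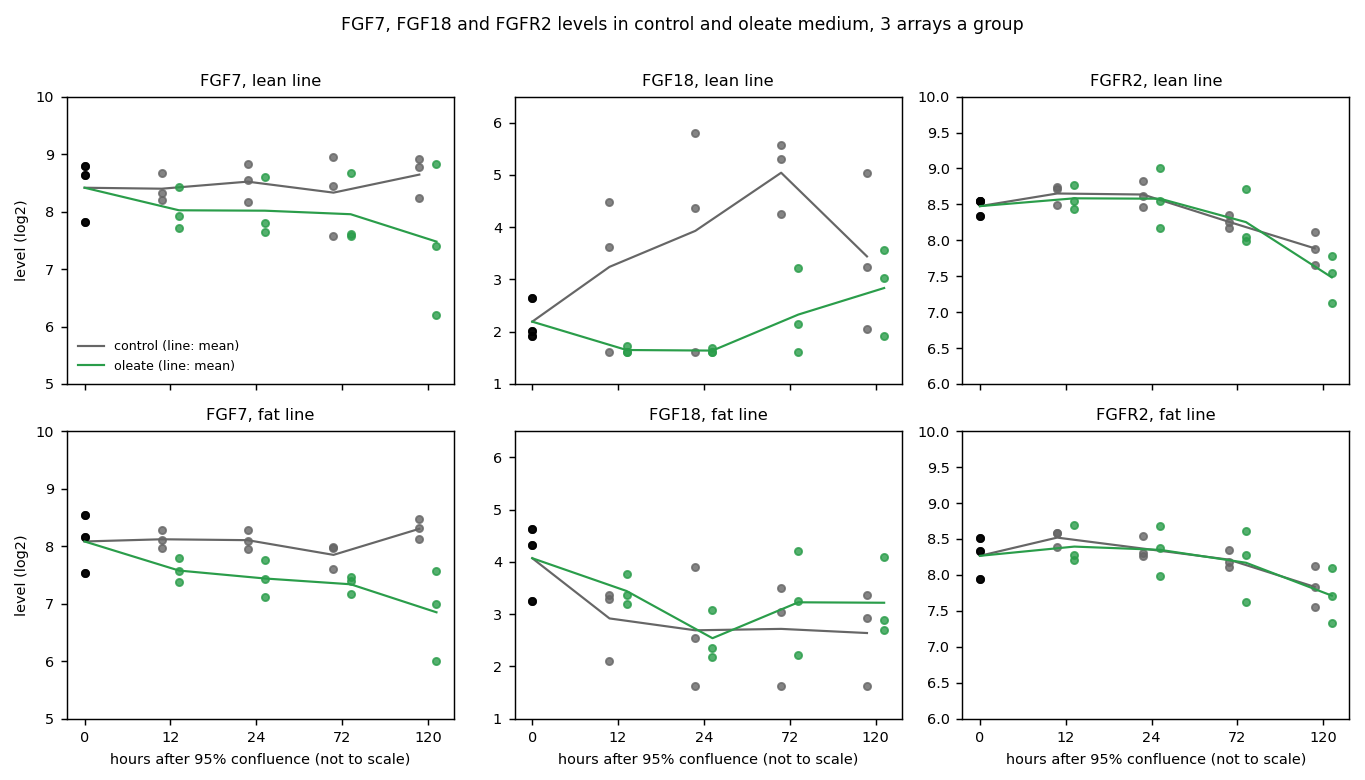
Log2 level (vertical axis) of FGF7, FGF18 and FGFR2 against hours after 95% confluence (horizontal axis, evenly spaced, not to scale), in the lean line (top) and the fat line (bottom), with a point for each of 3 arrays and lines through group means, grey for control and green for oleate. FGF7 means lie lower in oleate at every hour in both lines, FGF18 means lie higher in control at every hour in the lean line, and FGFR2 declines to 120 h in both media.

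FGFR2 declined with time in both media, each within its own array style but for 1 fat oleate array at 120 h that has no name. In control the 6 arrays ran from 8.39 to 8.74 (median 8.58) at 12 h and from 7.55 to 8.12 (median 7.86) at 120 h, with no overlap, and the fall was by 0.72 ± 0.16 (adjusted p = 0.00238; 9.36% of probe sets called). In oleate they ran from 8.21 to 8.77 (median 8.49) at 12 h and from 7.13 to 8.09 (median 7.63) at 120 h, again with no overlap, and the fall was by 0.89 ± 0.16 (adjusted p = 0.000115; 13.3% of probe sets called). A second FGFR2 probe set fell by 0.70 ± 0.18 in control and by 1.09 ± 0.18 in oleate. The oleate difference of FGFR2 was −0.11 ± 0.08 (95% interval −0.27 to 0.06, adjusted p = 0.322). Its probe sets disagreed here. The mean of the one given was lower in oleate in all 8 pairs of line and hour. The other tested ones were higher in 5, 6 and 5 of the 8. FGFR2 was thus lowest before culture, rose with confluence and came down by 120 h, when its 12 arrays were still above all 6 uncultured arrays.

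Other time courses were small or of a single medium. In oleate, FGF2 rose by 0.35 ± 0.09 from 12 h to 120 h (adjusted p = 0.00469) and FGFR1 by 0.34 ± 0.09 (adjusted p = 0.00822). In control the same steps were 0.23 ± 0.09 (adjusted p = 0.0839) and 0.18 ± 0.09 (adjusted p = 0.226), so a difference between media in these courses was not shown. FGFR3 fell in oleate by 1.51 ± 0.37 (adjusted p = 0.00399), from 4.61–5.79 at 12 h to 2.23–5.23 at 120 h. The mean of its probe sets gave −0.66 and missed the threshold (adjusted p = 0.184). After 12 h of oleate, 1 member differed from 0 h, against 0.549% of probe sets: FGFR1 fell from 8.33, 8.26 and 8.35 (lean) and 8.59, 8.72 and 8.55 (fat) to 7.92, 7.82 and 7.98 (lean) and 8.24, 8.27 and 8.14 (fat). No array of either line overlapped, and the fall was by 0.41 ± 0.09 (adjusted p = 0.0152). Control at 12 h gave a similar value against 0 h, −0.33 ± 0.09 (adjusted p = 0.00775; 17.5% of probe sets called), across array styles. The oleate call was lost without fat 0 h replicate 2 or fat oleate 12 h replicate 3.

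The rest of the pathway was followed through 5 lists. Of the 14 other FGF ligands listed, 3 were tested (FGF9, FGF16 and FGF19), and the others were too dim or, for 1, not on the array. FGF19, a bile-acid-induced hormone in mammals, fell by 1.02 ± 0.40 with culture (adjusted p = 0.0230) and was higher by 0.79 ± 0.20 in oleate (adjusted p = 0.00178). The culture call was lost in at least 1 of the fits with 1 array left out. The style estimate for FGF19 was 1.37, larger than its oleate difference. With it subtracted, and the wider standard errors that this brings, the oleate call was lost. FGF9 fell by 1.19 ± 0.30 from 12 h to 120 h in control (adjusted p = 0.00708).

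Among 6 tested genes for co-receptors and ligand-binding partners, 3 rose and 2 fell with culture, against 40.8% and 28.1% of all tested probe sets. N-cadherin (CDH2), which binds FGFR1, rose by 3.98 ± 0.23 (adjusted p = 2.80e-20) and NCAM1, a neural adhesion molecule that also binds FGF receptors, by 1.42 ± 0.48 (adjusted p = 0.00819). FLRT3 and FLRT2, adhesion proteins that modulate FGF signalling, fell by 1.14 ± 0.17 (adjusted p = 1.00e-07) and by 0.79 ± 0.19 (adjusted p = 0.000294). In oleate 3 were higher and 1 lower (background 17.4% and 17.6%), and with the style estimate subtracted none. With the mean of a gene's probe sets, 1 was higher. FGFRL1, a receptor without a kinase, fell by 0.84 ± 0.18 from 12 h to 120 h in control (adjusted p = 0.00206). The Klotho genes KL and KLB, whose proteins make the endocrine FGFs bind, were not tested because they were too dim.

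Of 19 tested heparan sulfate genes, 9 rose and 9 fell with culture, against 40.8% and 28.1% of all tested probe sets. HS3ST1, a heparan sulfate sulfotransferase, fell by 6.64 ± 0.42 (adjusted p = 2.29e-19) and GPC1, a glypican core protein, by 2.19 ± 0.14 (adjusted p = 5.35e-19). SDC2, a syndecan core protein, rose by 1.09 ± 0.08 (adjusted p = 9.00e-18) and EXT2, a chain-building enzyme, by 1.84 ± 0.17 (adjusted p = 1.21e-13). In oleate 1 was higher and 7 lower than in control (background 17.4% and 17.6%), among them SULF1, which trims sulfates from the chains, at −0.70 ± 0.14 (adjusted p = 5.90e-05). With the style estimate subtracted, and the wider standard errors that this brings, none was called. With the mean of a gene's probe sets, 4 were lower. The median of the list was 0.33 for culture and 0.05 for oleate, against 0.18 and −0.02 over all tested probe sets.

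Of 18 tested genes in the relay from the receptors to ERK, 6 rose and 8 fell with culture, against 40.8% and 28.1% of all tested probe sets, and the median was −0.05. PTPN11, a phosphatase that carries the signal on, rose by 1.20 ± 0.08 (adjusted p = 3.35e-18) and MAP2K2, the kinase just above ERK, by 1.07 ± 0.08 (adjusted p = 1.36e-17). GAB2, a docking protein, fell by 2.15 ± 0.14 (adjusted p = 2.97e-19) and the transcription factor STAT3 by 1.43 ± 0.12 (adjusted p = 1.85e-15). In oleate 1 was higher and 4 lower (background 17.4% and 17.6%, median −0.04), and 1 lower with the style estimate subtracted. The counts depended on the probe sets used: with the mean of a gene's probe sets, 6 were higher. The number lower ran from 3 to 6 over the other alternative settings.

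Of 16 tested feedback and target genes of the pathway, 4 rose and 10 fell with culture, against 40.8% and 28.1% of all tested probe sets, and the median was −0.60 against 0.18 over all tested probe sets. All 8 tested SPRY, SPRED and DUSP genes, which encode inhibitors of the relay or phosphatases of its kinases, were among those that fell. EGR1 and MYC, outside these families, fell as well. DUSP7, an ERK phosphatase, fell by 3.31 ± 0.18 (adjusted p = 2.51e-22). The ETS transcription factors ETV4 and ETV1, which are induced by FGF signals in many tissues, rose by 3.11 ± 0.18 (adjusted p = 3.37e-21) and 1.48 ± 0.16 (adjusted p = 7.94e-12), and CCND1, a cyclin that drives entry into the cell cycle, by 1.10 ± 0.11 (adjusted p = 4.32e-13). In oleate 5 of the 16 were higher and none lower (background 17.4% and 17.6%), among them DUSP7 by 0.43 ± 0.09 (adjusted p = 0.000126), SPRED2 by 0.26 ± 0.05 (adjusted p = 1.32e-05) and CCND1 by 0.30 ± 0.05 (adjusted p = 1.18e-05). With the style estimate subtracted, and the wider standard errors that this brings, none of the 5 was called. The estimate itself was −0.02 for CCND1, 0.04 for SPRED2 and 0.55 for DUSP7.

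**Figure D5:**
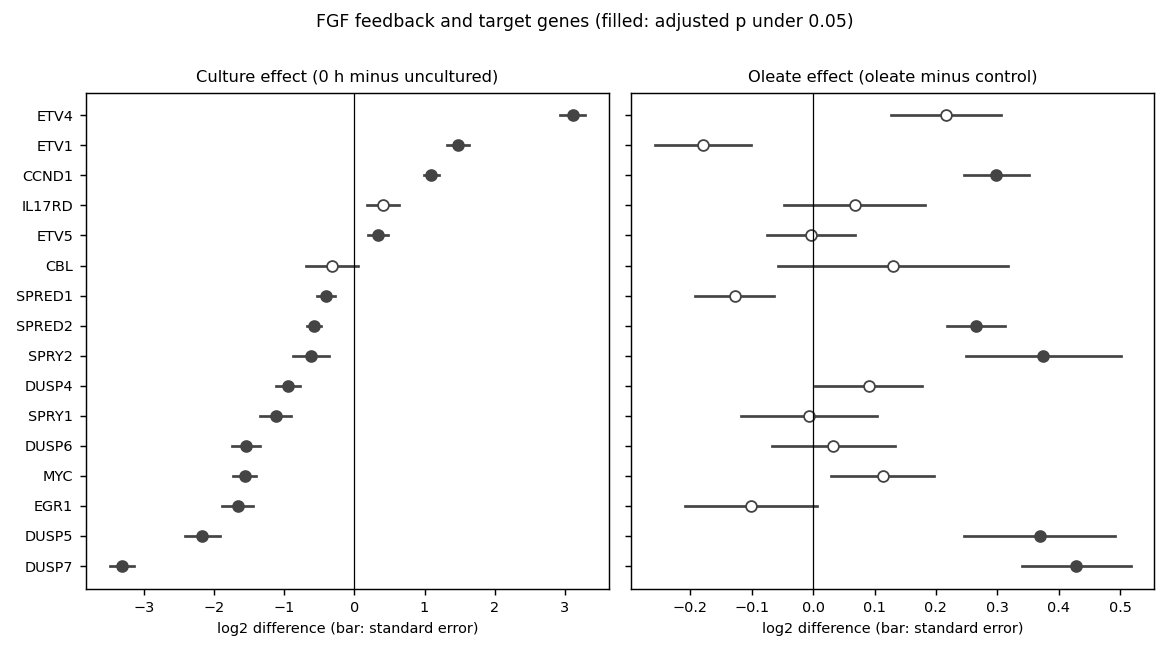
Difference in log2 level (horizontal axes, with different scales) for 16 feedback and target genes of FGF signalling (vertical axis), between 0 h and uncultured cells (left) and between oleate and control (right). Bars are standard errors and filled points had an adjusted p under 0.05. On the left 4 filled points lie above 0, led by ETV4 at 3.11, and 10 below, led by DUSP7 at −3.31, and on the right the 5 filled points lie above 0.

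Genes with the course most like each member were ranked by Pearson's r over the 22 group means among 9782 other named genes, as a description. The groups share the step between uncultured and cultured cells, which alone gives a high r. FGF2 was most like XRCC6 (0.988), SLC37A3 (0.988) and ACTN1 (0.987), and FGFR2 most like BBOX1 (0.962), DERA (0.956) and TYMS (0.956). FGF7 was most like SERPINF1 (0.936), LRRC17 (0.935) and LAMA2 (0.925), and FGF10 most like EN1 (0.916), CDC37L1 (0.905) and THBS1 (0.904). FGF18 was most like MATN2 (0.949), BMP7 (0.945) and SCARA5 (0.943), and FGF1 most like ASAH2 (0.965), CLDN2 (0.951) and BEND6 (0.947). FGFR1 was most like MAP1LC3A (0.943), PIK3AP1 (0.941) and GLUL (0.939), and FGFR3 most like NR3C2 (0.942), PNAT10 (0.926) and SLC45A4 (0.919). For FGFR4 no gene went above 0.717 (NHEJ1), and none of its 22 groups was separated from the next in the order of means.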

How the data were processed

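Total RNA was labelled as cRNA and hybridised to 1-colour Affymetrix chicken arrays, per the labels' protocols. The submitters' processing notes name MAS5 without a version or a role. The deposited values read as log2 signals: they run from −5.23 to 13.51, and all arrays have nearly the same distribution (largest gap 0.06), so a normalization between arrays had been made, but the log and normalization steps, and detection calls, are not given in the sources used here. The number of arrays, 3 in each group, limits the precision.

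Each array's 20th percentile was taken, and values under the median of these (1.61) were set to it. After leaving out 96 controls, 22060 of 38535 probe sets were tested, those that exceeded the array median throughout at least 1 group. Of all probe sets, 27178 name 1 gene, 177 several and 11180 none, and none was named from a probe set with several. limma 3.58.1 in R 4.3.3 fitted the 22 group means over 66 arrays (44 residual degrees of freedom, trended and robust variance), with two-sided p-values adjusted by Benjamini-Hochberg over all tested probe sets and 0.05 as the threshold. Errors are standard errors of the fit unless given as SD. The fit was tested on simulated data. A gene is represented by its tested probe set with the highest mean over all arrays, and 10176 genes were tested.

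All 9 genes are named. Of each pathway list up to 4 called genes per comparison are named, with EGR1 and MYC added for culture in the feedback list. The 3 most similar genes of each member are named. The members and lists, and the alternatives, were chosen with earlier results of these data known, and the within-line culture steps, the line difference at −12 h and the steps from 0 h into each medium were added after the values were seen. The pathway and marker lists were 5 and 9 in number.

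Same-numbered arrays were checked for pairing: the correlation of their deviations averaged 0.02 over 24 oleate and control pairs and 0.05 over 33 lean and fat pairs, with 4 and 9 above 0.1, so the numbers were not taken to pair samples. The series block joined same-numbered arrays of a line over all states, with control arrays apart from the others, and their estimated correlation was 0.126. Alternatives changed the filter, the floor, the variance model, array weights, blocks, centring, the use of all probe sets of a gene and the array style, and left out each array in turn. No sequences are shown.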

Additional observations from a re-analysis of the deposited data

Results flagged for a closer look

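FGF18 is listed because its oleate difference differed between the lines by the test of that difference itself. On the log2 scale, fat minus lean was 2.17 ± 0.51 (limma, adjusted p = 0.0137), with −1.80 in the lean line and 0.37 in the fat line. Leaving out each of 48 arrays gave 1.93 to 2.46, all called. With culture series as a random block the adjusted p was 0.0732. Groups of 3 arrays were not searched for outlying arrays.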

How the results depend on the processing

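Of 2697 recomputed member results under 11 alternative settings 2643 kept their side of the threshold and, where called, their direction. Of 3672 with 1 array left out 3624 did. Results called in neither fit count as kept whatever their sign. An example is FGF10 in the lean line, which turned to −1.23 with the style estimate subtracted. The pooled and lean-line culture differences kept 8 called genes in every setting and with each array left out, and the fat-line one had 7 to 8. FGF1 is in these counts, although its tested probe set passed the main filter through uncultured groups only. It thus had to be lower in culture, and its constant call is no support. The 6 called results whose sign turned all came from subtracting the array style estimate. They include FGF10 pooled (−1.05) and in the fat line (−0.87), and FGFR1 in the fat line (−0.18). The rest are FGFR3 pooled (−0.11), in the lean line (−0.030) and in the fat line (−0.19). Under it, with the wider standard errors that it brings, the called genes for oleate went from 4 to 0 pooled, 3 to 0 (lean) and 4 to 0 (fat). Total calls went from 7726 to 155 pooled, 4477 to 401 (lean) and 5616 to 19 (fat). With the culture series as a random block (correlation 0.126) called genes were 2 of 4 pooled, 2 of 4 in the fat line, 1 instead of 0 in the lean line at 120 h, 0 instead of 1 for fat minus lean and 0 instead of 1 for the line difference in control, and total calls for fat minus lean were 94 instead of 408. Array weights gave 1 instead of 0 for lean 12 h and for fat 24 h, 3 instead of 0 for lean 120 h, 2 instead of 1 for fat minus lean, for oleate 12 h against 0 h and for time in control, 0 instead of 1 for the line difference in control and in uncultured cells, 3 instead of 0 for the line difference at 0 h, and 1 instead of 0 for the style estimate; total calls rose to 2316 for fat minus lean, 4156 (from 1094) for lean 120 h and 6183 (from 2930) for time in oleate. The uncultured line difference went from 1 to 0 called gene with no filter and with no variance trend, lean 72 h from 1 to 0 with no floor or a floor at the 10th percentile, and lean 120 h from 0 to 1 with the mean of probe sets. Leaving out 1 array gave 0 to 1 called gene for lean 24 h, lean 72 h, fat 12 h, fat 120 h, oleate 12 h against 0 h, the line differences in control and in uncultured cells and lean confluence, 0 to 2 for lean 120 h, and 1 to 2 for fat minus lean and for time in control. With a replicate block the FGF18 line difference in oleate stayed at 0.99 and was called (adjusted p = 0.0387, 0.0536 without the block), and it changed no other call among the 9 genes. The causes of these shifts were not tested. Dim signals limit FGF1, FGF18, FGFR3 and FGFR4, which reached the floor in culture.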
